A study of Mus musculus with 24 samples.

Results

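The genes described here are 10 members of the Notch pathway among the 53465 genes in the table, measured by RNA-seq in 24 BURP bladder tumors: the receptors Notch1, Notch2 and Notch3, the ligands Jag1, Jag2 and Dll1, and the target genes Hes1, Hes2, Hey1 and Heyl. They were chosen by name, and their Ensembl identifiers were matched to mouse symbols in the GRCm38 annotation. The tumors came from 8 lines with 3 tumors each. Each line descends from the bladder tumor of 1 donor, a male or female C57BL/6NTac mouse that had 0.1% BBN, a bladder carcinogen, in its drinking water from 8 weeks of age for up to 36 weeks. All tumors had been passaged under the skin of C57BL/6NTac hosts of the donor's sex, whose age is not given in the sources used here. Of the basal/squamous (Ba/Sq) lines, the male ones were BURP-12BaSq, BURP-17BaSq along with BURP-18BaSq, and the female ones BURP-21BaSq, BURP-24BaSq along with BURP-25BaSq. The stroma-rich line BURP-16SR and the neuroendocrine-like line BURP-19NE were both male. The stroma-rich and the neuroendocrine-like group are thus 1 line each, so that a difference between subtypes and a difference between lines cannot be told apart, and p-values measure the spread between tumors, those of a line sharing their donor.

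Notch receptors sit on the cell surface and are bound by ligands of the Jagged and Delta-like families on neighbouring cells. Binding leads to cleavage of the receptor, and its intracellular part enters the nucleus, joins the DNA-binding protein Rbpj and switches on genes such as those of the Hes and Hey families, which encode transcriptional repressors. In stratified epithelium the pathway is known for its part in differentiation, in blood vessels for its part in the fate of endothelial and mural cells, and in neuroendocrine cells Hes1 is known to repress neural transcription factors.

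Levels are given as CPM, counts scaled to the TMM-normalized size of the library. Comparisons between genes use CPM per kb, that is, CPM divided by the summed exon length of the gene. Total counts ranged from 9295708 to 25370320, and 3 counts, taken as the smallest level a tumor could show, corresponded to 0.106 to 1.34 CPM. These floors cover counting error only. The highest floor belonged to C102-M30 of BURP-25BaSq, in which the ribosomal RNA gene CT010467.1 took 61.9% of the counts and 3725742 counts remained for all other genes. Under the label BURP-25BaSq, the library of C102-M1 resembled another line: over all genes, Pearson's r of log2(CPM + 1) averaged 0.989 against the BURP-21BaSq tumors, which reached 0.988 among themselves, and 0.959 against the other tumors of its own label. Where a result rests on either tumor, the value without it is given if it could be fitted. The subtype names were checked against marker genes. The summed level of 8 basal and squamous markers lay between 8659.5 and 22026.5 CPM in the Ba/Sq tumors and between 1.61 and 3.54 CPM in BURP-16SR and BURP-19NE. The summed level of 8 fibroblast markers in the stroma-rich line was 7645 CPM in C73-M10, 20517.5 CPM in C74-MNT and 588 CPM in P5, whereas the Ba/Sq tumors ran from 237 to 10201 CPM with a median of 1215. P5 thus lay below the Ba/Sq median and went against the name of its line. Of the neuroendocrine markers, Ncam1 (mean 308 CPM) was high in BURP-19NE, whereas Chga, Syp and Chgb were below 1 CPM there and Insm1 and Neurod1 had no counts. The study named the lines by a classifier of RNA levels, not by these markers. In it a minority of the BURP-16SR replicates fell to the neuroendocrine-like class. By antibody staining the study reports high synaptophysin, the protein of Syp, in both BURP-19NE and BURP-16SR. Since these are bulk tumors with host tissue in them, fewer cells of a type and less RNA per cell cannot be told apart.

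Across the 8 lines, 8 of the 9 members that passed the filter on low counts differed (edgeR F test, adjusted p under 0.05), beside 76.7% of all genes. Hes2, the remaining member, did not pass the filter in this or in any comparison below that used all tumors of its groups, and is described apart. Among the 6 Ba/Sq lines, 6 of 9 differed, beside 50.5% of all genes. Those that missed the threshold were Hes1 (adjusted p = 0.0513), Hey1 (adjusted p = 0.561) and Heyl (adjusted p = 0.552), and Heyl was also the exception across the 8 lines (adjusted p = 0.245). Hes1 lay at the limit: among the Ba/Sq lines it passed in 6 alternative fits and not in the others. It passed with DESeq2 (adjusted p = 0.0102) and in edgeR with the size factors of DESeq2 (adjusted p = 0.0372). The plot of levels by line shows each tumor.

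**Figure D1:**
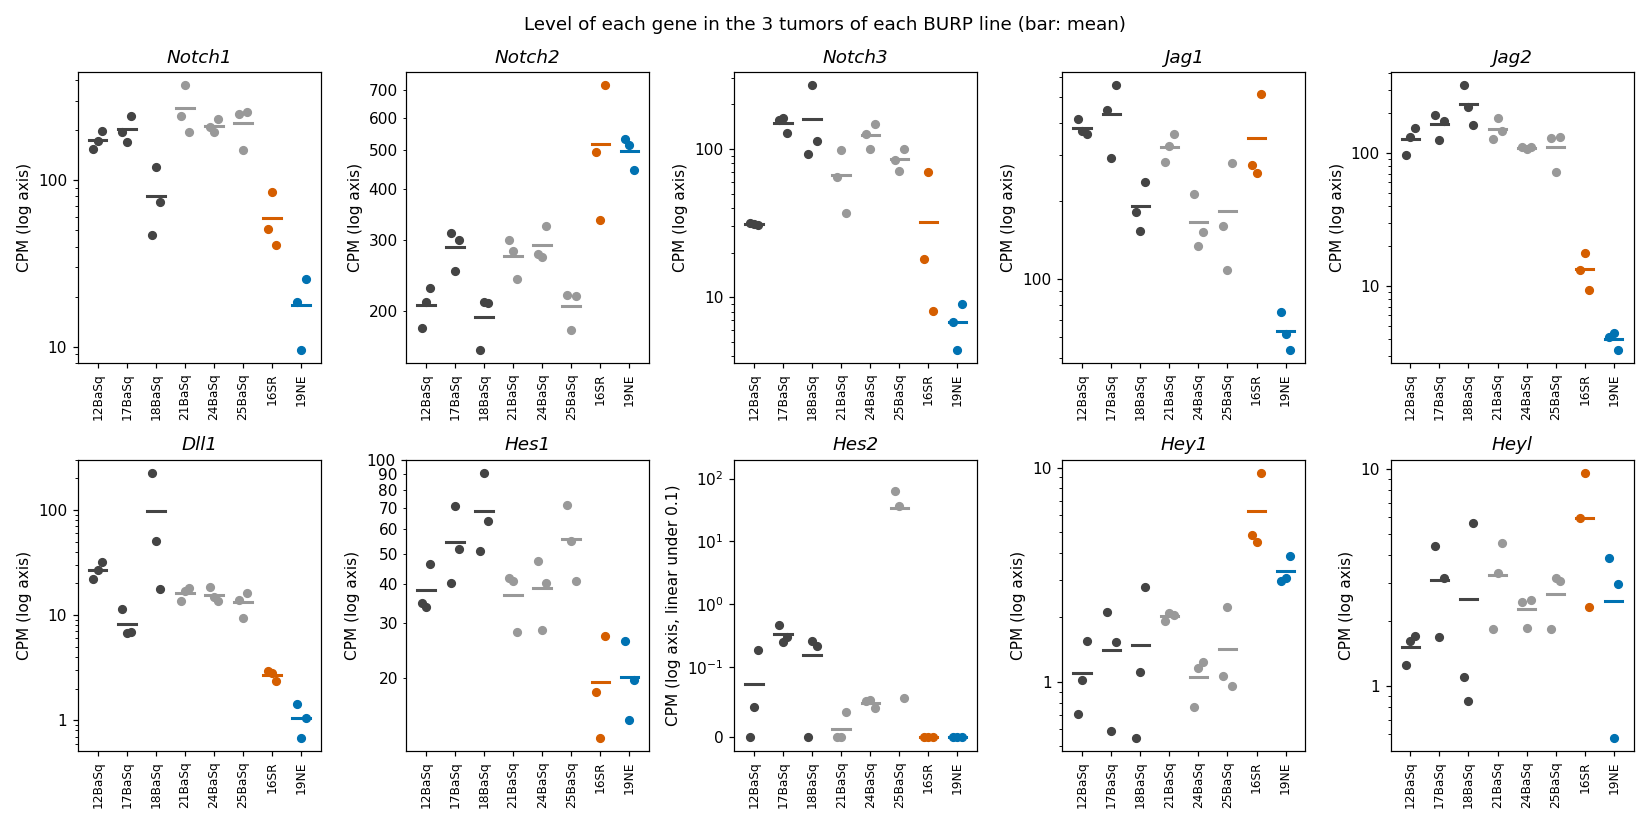
Level of each of the 10 genes in CPM (log axis, linear under 0.1 for Hes2) in the 3 tumors of each line, with a bar at the mean; dark grey marks male and light grey female Ba/Sq lines, orange BURP-16SR and blue BURP-19NE. Jag2 lies between 71.6 and 324 CPM in the Ba/Sq tumors and at or below 17.7 CPM in the other lines, and Notch2 is above all Ba/Sq tumors in both BURP-16SR and BURP-19NE.

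The comparison with the Ba/Sq tumors asked how the pathway stood in the lines of the other subtypes. In BURP-19NE, 2 members were higher (Notch2 and Hey1) and 6 were lower (Notch1, Notch3, Jag1, Jag2, Dll1 and Hes1) of 9 tested, at an adjusted p under 0.05 and more than 2-fold. Of all 20995 genes tested, 9.33% were higher and 15% lower by the same rule. The median log2 fold change was -2.11 over the members and -0.14 over all genes. In BURP-16SR, 3 members were higher (Notch2, Hey1 and Heyl) and 4 were lower (Notch1, Jag2, Dll1 and Hes1) of 9, beside 10.5% and 8.62% of 21028 genes. The median was -1.26 over the members and -0.03 over all genes. Both comparisons share the 18 Ba/Sq tumors.

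**Figure D2:**
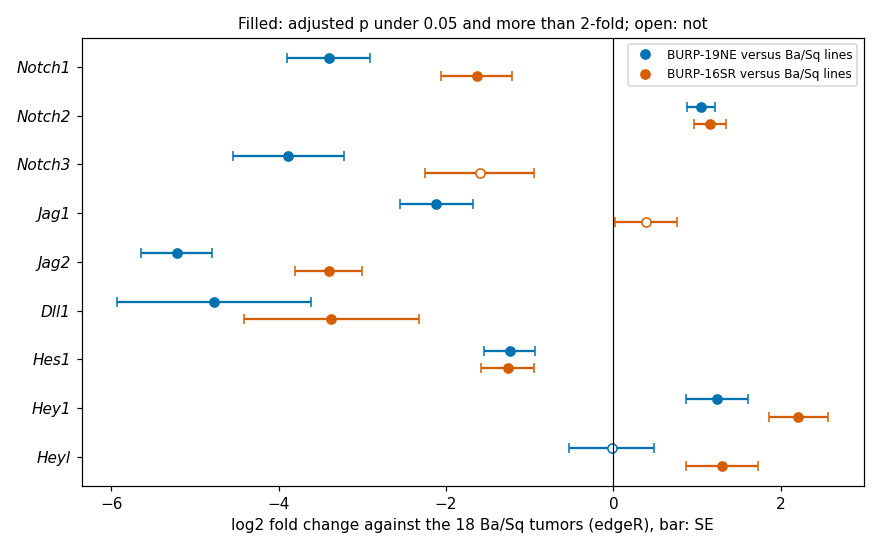
Log2 fold change of the 9 tested genes in BURP-19NE (blue) and BURP-16SR (orange) against the 18 Ba/Sq tumors, with bars of 1 SE; filled points passed the threshold and open points did not. Jag2 has the lowest value in both lines (-5.22 and -3.40), Notch2 lies just above 1 in both, and Jag1 is filled in BURP-19NE (-2.11) and open in BURP-16SR (0.39).

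Notch1 encodes the receptor best known from squamous epithelium and T cells, and lies on chromosome 2 from 26457903 to 26516663 (GRCm38). In the Ba/Sq tumors its level ran from 47 to 373 CPM with a median of 196. It stood at 18.6, 9.59 and 25.6 CPM in the BURP-19NE tumors, all below every Ba/Sq tumor. The log2 fold change was -3.40 (SE 0.49, adjusted p = 2.01e-05). In BURP-16SR the level was 50.9, 85.6 and 40.8 CPM, a range that held 2 Ba/Sq tumors, both of BURP-18BaSq (47, 121 and 74 CPM), and the log2 fold change was -1.63 (SE 0.42, adjusted p = 0.0075). This call was lost without C73-M10 of BURP-16SR (log2 fold change -1.55, adjusted p = 0.0513). In order of mean level, BURP-21BaSq, BURP-25BaSq, BURP-24BaSq, BURP-17BaSq and BURP-12BaSq (175 to 271 CPM) overlapped from neighbour to neighbour, a gap separated them from BURP-18BaSq (80.6 ± 37.4 CPM, SD, n = 3) and BURP-16SR, and another gap separated BURP-19NE.

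Notch2, a receptor that is widely expressed, lies on chromosome 3 from 98013527 to 98150361 and went the other way. The Ba/Sq tumors held 161 to 324 CPM (median 235). The BURP-19NE tumors held 531, 513 and 446 CPM. The BURP-16SR tumors held 493, 336 and 721 CPM. All 6 lay above all 18 Ba/Sq tumors. The log2 fold changes were 1.05 (SE 0.17, adjusted p = 6.43e-05) and 1.15 (SE 0.19, adjusted p = 0.000146). Both are close to the 2-fold limit, and Notch2 fell under it at 0.96 and 0.99 without C80-M1 or C80-M3 of BURP-19NE, at 0.99 without BURP-12BaSq or BURP-18BaSq, and, in BURP-16SR, at 0.76 without P5, with adjusted p from 7.86e-05 to 0.021. The order of the Ba/Sq lines was shallow, from BURP-24BaSq, BURP-17BaSq and BURP-21BaSq (274 to 291 CPM) to BURP-12BaSq, BURP-25BaSq and BURP-18BaSq (194 to 207 CPM), with a gap between these trios.

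Notch3, which is known from the mural cells of vessels and is also made in epithelium, lies on chromosome 17 from 32120820 to 32166852. Its Ba/Sq levels ran from 30.5 to 269 CPM (median 98.5). It was at 6.86, 4.43 and 9.03 CPM in BURP-19NE, below every Ba/Sq tumor, with a log2 fold change of -3.88 (SE 0.66, adjusted p = 0.000128). The BURP-16SR tumors were far apart, at 18.2, 69.5 and 8.04 CPM, and the log2 fold change of -1.60 (SE 0.65) did not pass (adjusted p = 0.0763). The tumor at 69.5 CPM, C74-MNT, also had the highest sum of 10 pericyte and smooth muscle markers (740 CPM, beside 398 and 221 CPM in the other tumors of the line). Its fibroblast sum was the highest as well (20517.5 CPM). Across the Ba/Sq tumors, the highest Notch3 level (269 CPM, in C149-M3) stood beside the lowest pericyte sum (56.4 CPM). The relation of Notch3 to these sums was not tested. Without C74-MNT the log2 fold change was -2.89 (adjusted p = 0.0143). The call also appeared with DESeq2 (adjusted p = 0.0202), with all 24 tumors in the fit (adjusted p = 0.0139) and without BURP-12BaSq (adjusted p = 0.0286). Among the Ba/Sq lines, BURP-12BaSq stood out with 31.6, 31.3 and 30.5 CPM, below the other 15 Ba/Sq tumors. In order of mean level, neighbours overlapped from BURP-18BaSq (158 ± 96.6 CPM, SD, n = 3) to BURP-12BaSq (31.1 ± 0.578), BURP-16SR included. BURP-19NE, the lowest, did not overlap with its neighbour BURP-12BaSq, whereas P5 of BURP-16SR (8.04 CPM) lay within its range.

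Per length, the receptor mix changed more than the total. The summed level of Notch1, Notch2, Notch3 and Notch4 was 50.5 ± 12.0 CPM per kb (SD, n = 18) in the Ba/Sq tumors, 49.1 ± 3.59 (n = 3) in BURP-19NE and 61.2 ± 13.2 (n = 3) in BURP-16SR. Notch2 made up 45.5% ± 5.93 of it in the Ba/Sq tumors (31.6% to 53.5%), 93.9% ± 2.22 in BURP-19NE (91.5% to 95.9%) and 76.6% ± 14.2 in BURP-16SR (60.6% to 87.8%). Shares of Notch2 in the 6 tumors of these lines lay above those of all Ba/Sq tumors. Notch1 made up 26.9% ± 8.38 in the Ba/Sq tumors, 2.61% ± 1.31 in BURP-19NE and 7.28% ± 4.06 in BURP-16SR. The mean share of Notch3 exceeded that of Notch1 in BURP-18BaSq (41.5% ± 10.6 against 12.4% ± 1.44), BURP-17BaSq (30.04% ± 5.39 against 23.0% ± 3.62) and, barely, BURP-24BaSq (26.0% ± 2.59 against 25.4% ± 0.374). These shares are descriptions and were not tested.

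**Figure D3:**
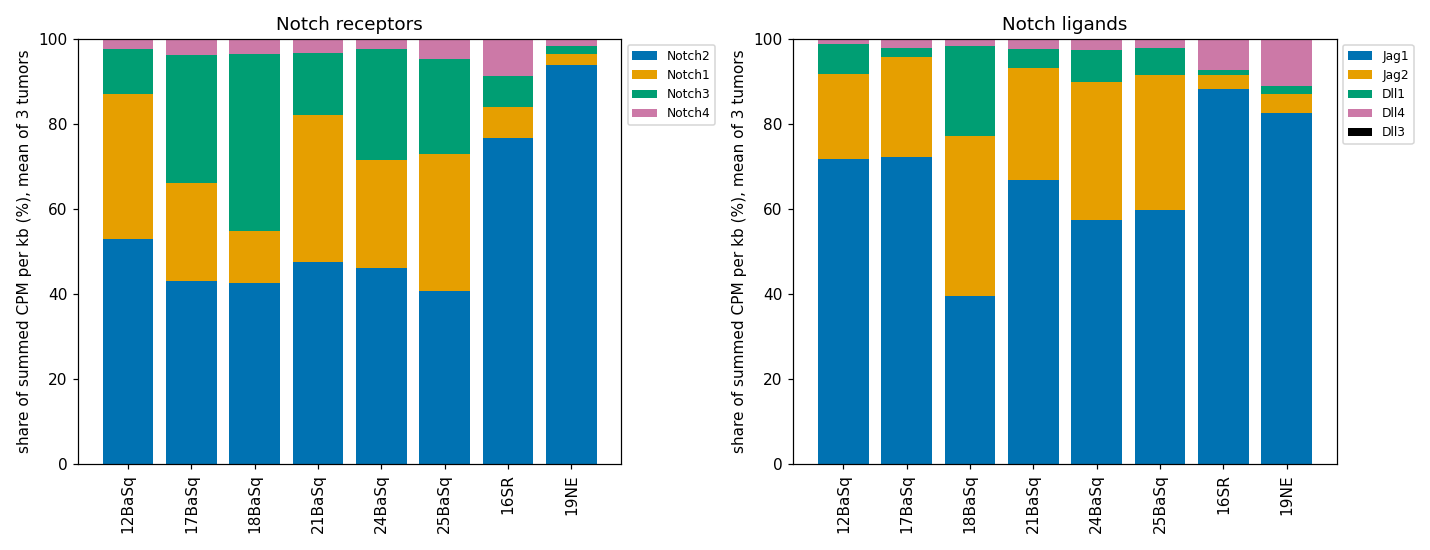
Share of each receptor (left) and ligand (right) in the summed CPM per kb of its family, in percent, as the mean of the 3 tumors of each line. Notch2 takes 93.9% of the receptor level in BURP-19NE and 76.6% in BURP-16SR against 40.7% to 53.0% in the Ba/Sq lines, and Jag1 has the largest mean share of the ligands in every line. In BURP-18BaSq its lead over Jag2 is small (39.6% against 37.7%), and in C148-M3 and C149-M3 of that line Jag1 is below Jag2.

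The sequences upstream of Notch2 and Notch3 are shown because these receptors moved in opposite directions in BURP-19NE. They are RefSeq promoter sequences of GRCm38.p6, and both end where the annotated gene or the RefSeq transcript begins. Notch2 is on the plus strand, at chr3:98013288-98013526, and Notch3 on the minus strand, at chr17:32166891-32167140. Capitals mark the GC box (GGGCGG or, on the other strand, CCGCCC), a motif looked for after the sequences had been seen.
Notch2: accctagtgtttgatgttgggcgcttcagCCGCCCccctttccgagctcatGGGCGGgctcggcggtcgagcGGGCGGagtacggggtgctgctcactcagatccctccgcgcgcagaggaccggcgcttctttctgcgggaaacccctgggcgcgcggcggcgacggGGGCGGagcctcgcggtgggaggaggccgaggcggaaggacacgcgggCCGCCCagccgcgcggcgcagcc
Notch3: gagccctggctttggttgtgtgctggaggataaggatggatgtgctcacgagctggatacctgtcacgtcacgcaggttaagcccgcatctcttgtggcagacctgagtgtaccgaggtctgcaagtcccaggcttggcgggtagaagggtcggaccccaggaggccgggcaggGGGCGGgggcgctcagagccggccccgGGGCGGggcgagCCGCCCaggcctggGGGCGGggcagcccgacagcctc
The Notch2 sequence holds 5 and the Notch3 sequence 4 of these motifs. In 300-base promoters, 35.7% of 32851 hold it. It was also found in the promoters of Notch1 and Jag2 and not in those of Jag1 and Dll1. The core motif of Rbpj, TGGGAA or TTCCCA, is in 25.6% of all promoters and was in none of the 7 promoters listed for 6 of the members, nor was its longer form GTGGGAA or TTCCCAC (6.38% of all promoters). The E-box CAGGTG or CACCTG (20.2% of all promoters) was in 1 of the 2 promoters of Dll1. No promoter was listed for the target genes Hes1, Hes2, Hey1 and Heyl, so they were not searched for any of these motifs. A match is a string of letters and does not show binding.

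Jag1, the ligand with the largest mean share per length in each line, lies on chromosome 2 from 137081456 to 137116644. Its product binds Notch receptors on neighbouring cells. The Jag1 level was 108 to 558 CPM in the Ba/Sq tumors (median 281) and 75.1, 61.8 and 53.7 CPM in BURP-19NE, with no overlap. The log2 fold change in BURP-19NE was -2.11 (SE 0.44, adjusted p = 0.000892). The BURP-16SR tumors, at 276, 256 and 517 CPM, lay within the Ba/Sq range, with a log2 fold change of 0.39 (SE 0.37, adjusted p = 0.474). Lines with high Jag1 were BURP-17BaSq (432 ± 133 CPM, SD, n = 3), BURP-12BaSq (383 ± 27.5), BURP-16SR (350 ± 145) and BURP-21BaSq (323 ± 40.8), which overlapped in that order. They were followed by BURP-18BaSq, BURP-25BaSq and BURP-24BaSq (167 to 191 CPM), of which BURP-18BaSq did not overlap with its neighbour BURP-21BaSq. In BURP-25BaSq, C102-M1 had 280 CPM, within the range of BURP-16SR, and the other tumors 161 and 108 CPM.

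Jag2, the second Jagged ligand, lies on chromosome 12 from 112907819 to 112929776 and had the lowest log2 fold change of the members in both lines. The Ba/Sq tumors held 71.6 to 324 CPM (median 132). The BURP-19NE tumors held 4.17, 4.43 and 3.31 CPM and the BURP-16SR tumors 13.2, 17.7 and 9.37 CPM. No tumor of either line reached the Ba/Sq range, and the BURP-19NE tumors lay below those of BURP-16SR. The log2 fold changes were -5.22 (SE 0.43, adjusted p = 7.2e-09) and -3.40 (SE 0.40, adjusted p = 1.77e-06). Both calls held in all 16 alternatives run for each comparison, with log2 fold changes from -5.33 to -5.05 and from -3.66 to -3.28. The lowest Ba/Sq level belonged to C102-M30, and without it and C102-M1 the lowest was 96.3 CPM.

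Dll1, a Delta-like ligand, lies on chromosome 17 from 15367354 to 15376872. The Ba/Sq tumors held 6.72 to 225 CPM (median 16.6). The BURP-19NE tumors were at 1.43, 0.685 and 1.04 CPM, from 13 to 34 counts, and the BURP-16SR tumors at 2.97, 2.79 and 2.38 CPM, from 34 to 36 counts. All 6 lay below all Ba/Sq tumors, and the BURP-19NE tumors lay below those of BURP-16SR. The log2 fold changes were -4.77 (SE 1.16, adjusted p = 0.00328) and -3.37 (SE 1.05, adjusted p = 0.0224). The BURP-16SR call was lost on leaving out any of its 3 tumors (log2 fold change -3.46 to -3.36, adjusted p from 0.0792 to 0.0846). In order of mean level, BURP-18BaSq (97.9 ± 111 CPM, SD, n = 3) and BURP-12BaSq (27.0 ± 5.07) came before BURP-21BaSq, BURP-24BaSq, BURP-25BaSq and BURP-17BaSq (8.29 to 16.2 CPM). The neighbours that did not overlap were BURP-12BaSq and BURP-21BaSq, BURP-17BaSq and BURP-16SR, and BURP-16SR and BURP-19NE. The lowest BURP-18BaSq tumor (17.9 CPM) lay within the ranges of BURP-21BaSq and BURP-24BaSq.

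Summed over Jag1, Jag2, Dll1, Dll3 and Dll4, the ligand level was 78.1 ± 27.3 CPM per kb (SD, n = 18) in the Ba/Sq tumors, from 31.9 to 132. It was 13.2 ± 2.10 (n = 3) in BURP-19NE, with 15.4 as the highest tumor, and 67.3 ± 24.8 (n = 3) in BURP-16SR, within the Ba/Sq range. Thus the BURP-19NE tumors had a receptor sum inside and a ligand sum below the Ba/Sq range. Jag1 made up 61.3% ± 13.4 in the Ba/Sq tumors, 82.6% ± 0.999 in BURP-19NE and 88.3% ± 4.50 in BURP-16SR. Dll4, a ligand of endothelial cells, made up 2.01% ± 0.904, 11.0% ± 0.776 and 7.37% ± 2.59. In BURP-19NE the level of Dll4 itself, 1.34 to 1.61 CPM per kb, lay within the Ba/Sq range of 0.642 to 4.09.

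Hes1, a repressor and the best-known target of Notch signalling, lies on chromosome 16 from 30064384 to 30067796. Its level was 28.2 to 91.0 CPM in the Ba/Sq tumors (median 44.3), 26.3, 14.8 and 19.7 CPM in BURP-19NE and 18.1, 12.9 and 27.3 CPM in BURP-16SR. All 6 values were below the Ba/Sq range, though the gap to it was small. The log2 fold changes were -1.24 (SE 0.30, adjusted p = 0.00358) and -1.26 (SE 0.32, adjusted p = 0.00607), and the latter was lost without C74-MNT (-1.05, adjusted p = 0.0546). Of the neighbours in the order of the 8 lines, only BURP-21BaSq (37.1 ± 7.67 CPM, SD, n = 3) and BURP-19NE (20.3 ± 5.79) did not overlap.

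Hey1, a repressor known from endothelium and mesenchyme, lies on chromosome 3 from 8663359 to 8667256 and went up where Hes1 went down. Its levels were low: 0.549 to 2.78 CPM in the Ba/Sq tumors (median 1.20), 2.95, 3.06 and 3.86 CPM in BURP-19NE, and 4.83, 4.49 and 9.44 CPM in BURP-16SR. The 3 ranges did not overlap. The log2 fold changes were 1.24 (SE 0.37, adjusted p = 0.014) and 2.21 (SE 0.35, adjusted p = 9.4e-05). The former was lost without C80-M30 (1.08, adjusted p = 0.084). Its counts were as low as 4 and 5 in C148-M3 and C102-M30.

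Heyl, a related repressor known from vascular mural cells, lies on chromosome 4 from 123233556 to 123249875. Its level was 0.858 to 5.61 CPM in the Ba/Sq tumors (median 2.15) and 3.87, 0.580 and 2.95 CPM in BURP-19NE. These ranges overlapped, and the log2 fold change was -0.02 (SE 0.50, adjusted p = 0.978, approximate 95% interval -1.01 to 0.96). In BURP-16SR it was 5.93, 9.60 and 2.31 CPM, with 2 of 3 tumors above all Ba/Sq tumors. The log2 fold change of 1.3 (SE 0.43, adjusted p = 0.0302) was lost in 6 of 16 alternatives, among them leaving out C74-MNT (0.76, adjusted p = 0.34) or C73-M10 (1.29, adjusted p = 0.102). Of the neighbours in the order of the lines, only BURP-24BaSq (2.26 ± 0.352 CPM, SD, n = 3) and BURP-12BaSq (1.52 ± 0.239) did not overlap, and the BURP-12BaSq tumors lay within the ranges of BURP-18BaSq and BURP-19NE.

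Per length, Hes1 was the most abundant of these 3 targets in each subtype, at a mean of 24 CPM per kb in the Ba/Sq tumors, 9.95 in BURP-19NE and 9.55 in BURP-16SR. Hey1 was at 0.433, 1.01 and 1.92 CPM per kb and Heyl at 0.499, 0.483 and 1.16 CPM per kb in the same order.

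In BURP-16SR, many markers of vessels were higher than in the Ba/Sq tumors, as were both Hey genes. Of 10 endothelial markers, 7 were higher in BURP-16SR than in the Ba/Sq tumors and none lower, and of 10 markers of pericytes and smooth muscle 9 were higher. Their sums were 227 to 393 CPM and 221 to 740 CPM in BURP-16SR, against 36.5 to 402 CPM and 56.4 to 415 CPM in the Ba/Sq tumors, and no marker of either list was at 0 in all tumors of a group. Of 8 fibroblast markers 3 were higher in BURP-16SR and none lower, and of 7 leukocyte markers 1 was higher and none lower. Of all genes tested, 10.5% were higher and 8.62% lower, so that the leukocyte count was near the share of all genes. The leukocyte sum was 76.4 to 439 CPM in BURP-16SR and 19.3 to 342 CPM in the Ba/Sq tumors, and the fibroblast sums are those given above. In BURP-19NE the endothelial and pericyte sums were 59.1 to 85.6 CPM and 56.1 to 127 CPM, in the lower part of the Ba/Sq range or just at its end. No endothelial marker passed the threshold there, beside 9.33% of all genes higher and 15% lower. Within the 18 Ba/Sq tumors, Pearson's r of log2(CPM + 1) between Heyl and the pericyte sum was 0.913 (Spearman's rho 0.932, r 0.894 without the 2 tumors farthest from the median), and between Hey1 and the endothelial sum 0.705 (rho 0.723, r 0.726). Over all 24 tumors these values were 0.906 and 0.646. The crossed pairs were close to these within the 18 Ba/Sq tumors. There r was 0.883 between Heyl and the endothelial sum and 0.699 between Hey1 and the pericyte sum. These values thus do not tell the pericyte and the endothelial list apart. Within BURP-16SR, Hey1 was lowest (4.49 CPM) in C74-MNT, which had the highest sums of both vessel lists. It was highest (9.44 CPM) in P5, which had the lowest pericyte sum. Heyl rose from P5 to C73-M10 to C74-MNT, as did both the pericyte and the fibroblast sum. Relations with the fibroblast and leukocyte sums were not computed. Tumors of a line share their donor, the relation was looked at after the levels had been seen, and the part of vessel, fibroblast and leukocyte content in the differences between lines was not tested.

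**Figure D4:**
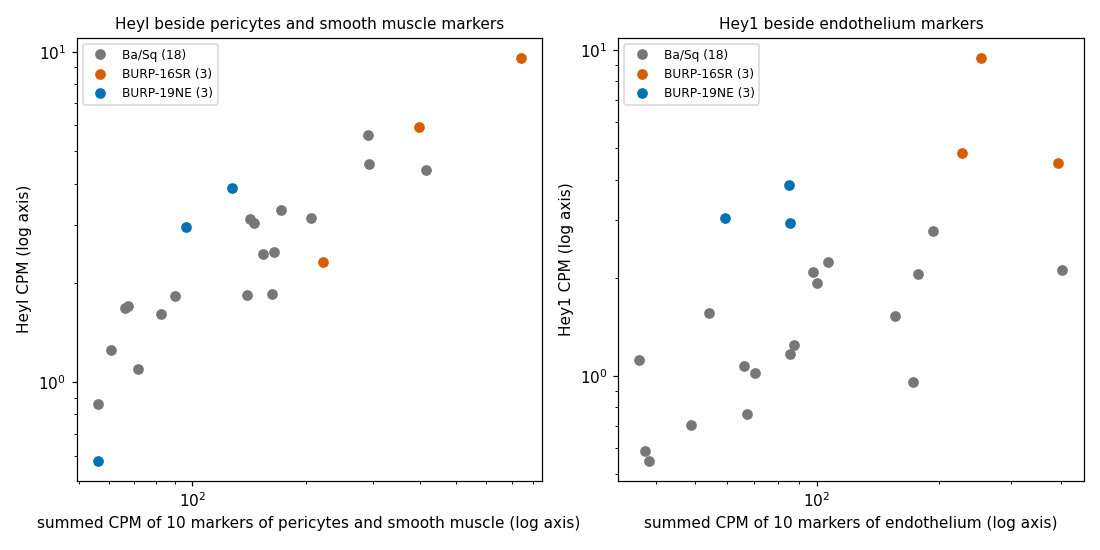
Left, Heyl in CPM against the summed CPM of 10 markers of pericytes and smooth muscle; right, Hey1 in CPM against the summed CPM of 10 endothelial markers; all axes are log axes and each point is a tumor. Heyl lies along the marker sum in all groups, whereas the 3 BURP-19NE tumors (2.95 to 3.86 CPM of Hey1) lie above all Ba/Sq tumors at endothelial sums of 59.1 to 85.6 CPM.

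Hes2, a repressor of the Hes family, lies on chromosome 4 from 152158867 to 152162469 and had few or no counts outside BURP-25BaSq. It reached 64.0 CPM (1437 counts) in C102-M3 and 36.7 CPM (82 counts) in C102-M30. In the other 22 tumors the highest level was 0.460 CPM (12 counts, in BURP-17BaSq), and 10 of them had no counts, among them all BURP-16SR and BURP-19NE tumors. The lower of the high tumors stood 79.8 times above the highest of the rest. The third BURP-25BaSq library, C102-M1, whose label is in doubt, had 1 count. Because the edgeR filter asked for more tumors than these, Hes2 was not tested in the comparison of BURP-25BaSq with the other Ba/Sq lines. Without C102-M1 it was called, with a log2 fold change of 8.55 (SE 0.67), as were 1.50% of all genes in either direction. With a filter on a mean of at least 10 counts and C102-M1 kept, it was called at 7.97 (SE 0.87). In both fits Hes2 passed the filter only through C102-M3 and C102-M30. These calls thus restate the levels above and add no separate support. Without C102-M30, Hes2 did not pass the edgeR filter, and the high level of the line rested on C102-M3.

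Taking each Ba/Sq line against the other 5, members were called in 2 lines. In BURP-12BaSq 1 of 9 was called (4.59% of all genes in either direction), namely Notch3 with a log2 fold change of -1.91 (SE 0.42, adjusted p = 0.0117) and no overlap. The call was lost on leaving out any tumor of the line (-1.92 to -1.89, adjusted p from 0.0652 to 0.0919). In BURP-18BaSq 2 of 9 were called (10.1% of all genes). Notch1 was lower (-1.42, SE 0.28, adjusted p = 0.00216), with all 3 tumors below the other 15, and Dll1 was higher (2.61, SE 0.43, adjusted p = 0.000529). The Dll1 levels of the line were 225, 51.0 and 17.9 CPM, the last of these within the range of the other lines. Without C148-M3, the highest, the log2 fold change was 1.09 (adjusted p = 0.166). Jag2 was at 324, 221 and 161 CPM in BURP-18BaSq, and its log2 fold change of 0.83 (SE 0.23, adjusted p = 0.0185) stayed under 2-fold. Leaving out P4 brought it to 1.03 (adjusted p = 0.0108).

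In the other 4 Ba/Sq lines edgeR called none of the 9 members. The shares of all genes called were 1.07% in BURP-17BaSq, 0.0195% in BURP-21BaSq, 1.65% in BURP-24BaSq and 0.273% in BURP-25BaSq. At an unadjusted p under 0.05 there were 2 members in BURP-17BaSq, 0 in BURP-21BaSq, 1 in BURP-24BaSq and 0 in BURP-25BaSq, beside 3124, 2213, 3723 and 1918 of 20523 genes. DESeq2 called 1 in BURP-17BaSq and 0 in the others.

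BURP-16SR was also set directly against BURP-19NE. Of 9 members, 4 were higher in BURP-16SR and 0 lower, beside 14.8% and 8.86% of 17556 genes. These were Jag1 (log2 fold change 2.54, SE 0.29, adjusted p = 0.00197), Jag2 (1.86, SE 0.31, adjusted p = 0.00624), Notch1 (1.82, SE 0.44, adjusted p = 0.0206) and Dll1 (1.45, SE 0.36, adjusted p = 0.0228), each without overlap. Calls of Jag1 and Jag2 held in all 11 alternatives, that of Notch1 was lost in 3 (adjusted p from 0.0523 to 0.0762) and that of Dll1 in 6 (adjusted p from 0.0532 to 0.0922). Notch2 did not pass (0.14, approximate 95% interval -0.38 to 0.65, adjusted p = 0.711). Nor did Hes1 (0.02, approximate 95% interval -0.60 to 0.64, adjusted p = 0.963). Both changed sign under some alternatives, and both intervals are too narrow for so few tumors. Notch3 (2.35, SE 0.80, adjusted p = 0.061) and Hey1 (1.01, SE 0.34, adjusted p = 0.0624) missed the threshold, and DESeq2 called Notch3 (adjusted p = 0.00481).

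BURP-24BaSq and BURP-16SR are the lines that the study went on to treat with cisplatin. Of 9 members, 3 were higher in BURP-24BaSq (Jag2, Dll1 and Notch1) and 2 lower (Hey1 and Jag1), beside 13.2% and 15.8% of 18283 genes. The Jag2 levels were 112, 107 and 110 CPM in BURP-24BaSq, and the log2 fold change was 2.96 (SE 0.27, adjusted p = 0.000375). Dll1 (18.4, 14.9 and 13.7 CPM) had 2.47 (SE 0.24, adjusted p = 0.000517) and Notch1 (208, 195 and 233 CPM) 1.78 (SE 0.30, adjusted p = 0.00451). Hey1, at 0.764, 1.17 and 1.24 CPM, had -2.60 (SE 0.41, adjusted p = 0.00321). Jag1, at 213, 134 and 152.5 CPM, had -1.11 (SE 0.31, adjusted p = 0.0288), a call that was lost in 3 of 11 alternatives. In all 5 genes the tumors of the lines did not overlap. Notch2 (-0.87, adjusted p = 0.0439) and Hes1 (0.95, adjusted p = 0.0473) passed on p but stayed under 2-fold.

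Between the male and female Ba/Sq lines, 3 lines each, edgeR called 0 of 9 members, beside 1.09% of 17922 genes higher in males and 1.22% lower. At an unadjusted p under 0.05 there were 4 members, beside 4135 of all genes tested, and DESeq2 called 1. Dll1 averaged 44.4 CPM in males and 15.04 CPM in females (log2 fold change 1.57, SE 0.56, adjusted p = 0.101). It was called by DESeq2 (1.60, adjusted p = 0.0319) and by edgeR without BURP-17BaSq (2.06, adjusted p = 0.0125), while 2 male tumors, both of BURP-17BaSq, lay below all female tumors. The male mean includes C148-M3 of BURP-18BaSq at 225 CPM, and without that line the log2 fold change was 0.19 (adjusted p = 0.788). Notch1 averaged 153 CPM in males and 234 CPM in females (-0.62, SE 0.25, adjusted p = 0.139), Jag1 335 and 224 CPM (0.58, SE 0.27, adjusted p = 0.201) and Jag2 176 and 124 CPM (0.51, SE 0.21, adjusted p = 0.141). With 3 lines a sex, the tumors of a line do not stand for separate donors, and with counts summed per line no gene of the table was called.

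The rest of the pathway was described by a list of 50 further genes. In BURP-19NE 3 were higher and 6 lower of 45 tested, near the shares of all genes (9.33% and 15%), and their median log2 fold change was 0.08. Dtx4, which encodes a Deltex ubiquitin ligase, was at 143, 155 and 124 CPM in BURP-19NE, whereas the Ba/Sq range was 3.69 to 27.7 CPM (log2 fold change 3.26, SE 0.30, adjusted p = 4.31e-08). Nrarp, a target gene whose product dampens Notch signalling, was at 3.58, 2.64 and 3.22 CPM against 8.54 to 77.7 CPM (-3.39, SE 0.63, adjusted p = 0.000303). Dtx1, another Deltex gene, had 2, 0 and 0 counts in BURP-19NE and a mean of 0.513 CPM in the Ba/Sq tumors. Its call (adjusted p = 0.0193) was lost without C80-M3 or C80-M30 (adjusted p = 0.0925 and 0.088). The other genes called were Rbpj and Psen2, both higher, and Dlk2, Hey2, Rfng and Dtx3l, all lower.

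In BURP-16SR 7 of the further genes were higher and 2 lower of 45 tested, beside 10.5% and 8.62% of all genes, with a median log2 fold change of 0.08. Dlk1, which encodes a Delta-like protein without the domain by which canonical ligands activate Notch, was at 21.8, 5.11 and 39.8 CPM, above the highest Ba/Sq tumor at 3.60 CPM (log2 fold change 5.85, SE 0.88, adjusted p = 4.61e-05). Dtx2, a Deltex gene, was at 132, 89.8 and 151.7 CPM against 17.0 to 56.5 CPM (2.10, SE 0.24, adjusted p = 1.33e-06). Dtx1 was at 13.2, 1.01 and 0.0699 CPM, so that its log2 fold change of 3.25 (adjusted p = 0.00396) rested on C73-M10 and was 0.09 without it. Notch4 and Dll4, receptor and ligand of endothelial cells, rose by log2 fold changes of 1.69 (SE 0.41, adjusted p = 0.00441) and 1.71 (SE 0.38, adjusted p = 0.00217). Both moved with the vessel markers above: over the 18 Ba/Sq tumors Pearson's r with the endothelial sum was 0.859 for Notch4 and 0.887 for Dll4. With the pericyte sum it was 0.823 for Notch4 and 0.876 for Dll4.

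Rbpj, the DNA-binding partner of all Notch receptors, was higher in both lines. It was at 328, 343 and 272 CPM in BURP-19NE and at 195, 203 and 290 CPM in BURP-16SR, above the Ba/Sq range of 49.2 to 143 CPM. The log2 fold changes were 1.81 (SE 0.22, adjusted p = 2.88e-06) and 1.40 (SE 0.23, adjusted p = 0.000141). Reads of Rbpj can fit its pseudogenes, such as Rbpj-ps3, and its level is uncertain to that extent. By role, none of the 4 genes of ligand ubiquitination and none of the 3 corepressors passed in either line, and of 10 genes of receptor cleavage 1 passed in BURP-19NE (Psen2, log2 fold change 1.32, adjusted p = 0.00365) and 0 in BURP-16SR. Of all genes, 9.33% were higher and 15% lower in BURP-19NE, and 10.5% and 8.62% in BURP-16SR.

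In the direct comparison of BURP-16SR with BURP-19NE, 8 of the further genes were higher and 3 lower of 43 tested, beside 14.8% and 8.86% of all genes. Dlk1 had a log2 fold change of 6.30 (SE 0.86, adjusted p = 0.00308) over 3 to 8 counts in the BURP-19NE tumors, Nrarp 3.53 (SE 0.21, adjusted p = 0.000441) and Mfng, a sugar transferase that modifies the receptors, 2.87 (SE 0.56, adjusted p = 0.01). Between BURP-24BaSq and BURP-16SR, 2 were higher in BURP-24BaSq and 11 lower of 44 tested, beside 13.2% and 15.8% of all genes. Dlk1, with 1 to 4 counts in BURP-24BaSq, had -7.78 (SE 1.0, adjusted p = 0.00151), Mfng -2.26 (SE 0.49, adjusted p = 0.0116) and Dtx3l, a Deltex partner, 2.25 (SE 0.50, adjusted p = 0.013). The call of Mfng was lost without C81-M1 or C81-M30 of BURP-24BaSq (adjusted p = 0.0547 and 0.0548). None of 42 passed between the sexes (edgeR), and 11 had an unadjusted p under 0.05, as did 4135 of the 17922 genes tested.

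Each Ba/Sq line against the other 5 had from 0 to 4 of 45 further genes called. Of all genes, 4.59% were called in BURP-12BaSq, 1.07% in BURP-17BaSq and 10.1% in BURP-18BaSq. The shares were 0.0195% in BURP-21BaSq, 1.65% in BURP-24BaSq and 0.273% in BURP-25BaSq. In BURP-18BaSq the share of further genes called was below that of all genes. In BURP-18BaSq, Dlk1 (log2 fold change 3.99, SE 0.59, adjusted p = 0.000192) and Numbl, a relative of the Notch inhibitor Numb (1.49, SE 0.32, adjusted p = 0.00456), were higher and the coactivator Maml2 (-1.10, SE 0.33, adjusted p = 0.0286) was lower. In BURP-12BaSq the sugar transferase Lfng (-1.72, SE 0.37, adjusted p = 0.0103) and Nrarp (-1.62, SE 0.47, adjusted p = 0.0412) were lower, and Rfng (1.08, SE 0.28, adjusted p = 0.0267), related to Lfng, and Maml3 (1.08, SE 0.25, adjusted p = 0.0148), related to Maml2, were higher. In BURP-17BaSq Dlk2 was lower (-3.19, SE 0.76, adjusted p = 0.0383) and Hes6 higher (1.10, SE 0.27, adjusted p = 0.0434), and in BURP-24BaSq Rfng was lower (-1.36, SE 0.33, adjusted p = 0.0342). None was called in BURP-21BaSq and BURP-25BaSq, where 6 and 2 had an unadjusted p under 0.05, beside 2213 and 1918 of all 20523 genes. Except for Dlk1 and Numbl, each of these calls was lost on leaving out at least 2 of the 3 tumors of its line in turn.

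The genes whose log2 CPM most resembled each member were ranked over 21383 genes. Over all 24 tumors Jag2 was nearest to Lsr (Pearson's r 0.976), Tns4 (0.974) and Strc (0.969), Notch1 to Arhgef10l (0.972), Rnf144b (0.948) and Ptpru (0.945), and Heyl to Serpinf1 (0.925), Bgn (0.903) and Loxl1 (0.898). These values span the split between the Ba/Sq and the other lines. Within the 18 Ba/Sq tumors the nearest genes were Crabp2 (0.906), Adgrl2 (0.898) and Ptpru (0.895) for Notch1, Phldb3 (0.911), Cldn4 (0.910) and Kif1c (0.894) for Notch3, and Twist1 (0.925), 4833418N17Rik (0.904) and Gm28536 (0.896) for Jag2. Heyl was nearest to Gja4 (0.933), Cspg4 (0.924) and Pcdh12 (0.920), of which Cspg4 is also on the pericyte list. Over 24 tumors the nearest gene to Notch3 was Gm17276 (0.927), a transcript antisense to it with at most 106 counts. The strand setting of the counting is not given in the sources used here, so reads of Notch3 and Gm17276 may not be fully told apart, and the same holds for Dll1 and A930024N18Rik (at most 40 counts).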

How the data were processed

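Total RNA of 24 tumors was depleted of ribosomal RNA and sequenced with paired ends. The authors aligned the reads to GRCm38 (GENCODE M16) with STAR 2.6.0a and ran RSEM 1.3.1, whose estimated counts for each gene they deposited without normalization. CASAVA 1.8.2 is also named in the submitters' processing notes. Of the values, 12.5% were not whole, and all were rounded. Each tumor's line came from its title, and the subtype and sex of each line from the study's methods. Symbols, exon lengths and positions came from GENCODE M21, an annotation of the same build, in which 99.6% of the identifiers were found.

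Comparisons used edgeR 4.0.16 in R 4.3.3 (TMM, filterByExpr, glmQLFit and glmQLFTest) on all genes that passed the filter in the tumors compared, with p-values adjusted by Benjamini and Hochberg over all of them. A gene counted as called when its adjusted p was under 0.05 and its log2 fold change above 1 in size, and in the tests over lines at the adjusted p alone. SE of log2 fold changes were worked back from the log2 fold change and the F statistic of its test. The approximate intervals take a multiple of this SE that holds for large samples. They are too narrow for fits of few tumors, such as BURP-16SR against BURP-19NE. Line, subtype and sex comparisons had no covariates. The fits were tested on simulated data. Log2 CPM for likeness used a prior count of 2. Figures were drawn with matplotlib 3.10.9 in Python 3.11.15.

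The members and gene lists were chosen with earlier results of these data known. Named were all members and, of the further pathway genes, the 3 with the largest log2 fold change among those called. The genes most like each tested member were ranked, and are printed only for Notch1, Notch3, Jag2 and Heyl. Rbpj, Notch4, Dll4, Psen2, Maml3 in BURP-12BaSq, Dlk2, Hey2, Rfng and Dtx3l in BURP-19NE, and the tumors singled out were named outside the rule on pathway genes, after their values were seen. Alternatives were DESeq2 1.42.0, its size factors, no filter, a filter on a mean of at least 10 counts, all 24 tumors in the fit, leaving out each tumor or line, leaving out C102-M1 and, for the sexes, counts summed per line. Leaving out C102-M30 was chosen after seeing the data. A marker gene is not reported here.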

Additional observations from a re-analysis of the deposited data

Results flagged for a closer look

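Within the 9 male and the 9 female Ba/Sq tumors, the highest and the lowest tumor of each member were compared with their neighbours, which gave 20 groups. Dixon's limits were used, which flag about 1 in 20 groups by chance when values are independent and normal. These are CPM of tumors that share lines, so that this rate cannot be relied on here. In all, 2 groups were flagged. Dll1 in the male tumors stood at 225 CPM in C148-M3 of BURP-18BaSq, with a gap to the next tumor of 0.797 of the whole range. Notch1 in the female tumors stood at 373 CPM in P4.2 of BURP-21BaSq, with a gap of 0.522 of the range.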

How the results depend on the processing

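Of 1131 values recomputed for single genes, 1026 kept their direction and their side of the threshold, 68 lost and 25 gained a call, and 12 changed sign, all of them of uncalled genes. For Heyl in BURP-19NE the log2 fold change ran from -0.54 to 0.41 when a tumor or line was left out. For Jag1 in BURP-16SR it ran from -0.078 to 0.56, and for BURP-16SR against BURP-19NE from -0.18 to 0.36 for Notch2 and from -0.31 to 0.24 for Hes1. Hes1 was also at -0.0016 with DESeq2, -0.0017 with its size factors, -0.042 without a filter and -0.059 with all 24 tumors. Counts of called members moved over 1.5 times as follows, the cause not being tested. With DESeq2, 1 was called between the sexes and 1 in BURP-17BaSq, and with a mean of at least 10 counts 1 between the sexes and 1 in BURP-25BaSq, where 1 was also called without C102-M1. Leaving out tumors or lines gave 4 to 7 members in BURP-16SR, 2 to 5 between BURP-16SR and BURP-19NE, 0 to 1 between the sexes, 0 in BURP-12BaSq, 1 to 3 in BURP-18BaSq and 0 to 1 in BURP-25BaSq. The counts of all genes called with DESeq2 were 768 between the sexes, 2169 in BURP-12BaSq, 599 in BURP-17BaSq, 360 in BURP-21BaSq, 737 in BURP-24BaSq and 147 in BURP-25BaSq, against 414, 941, 220, 4, 339 and 56 with edgeR. Summed per line, 0 passed between the sexes. In BURP-21BaSq 0 passed with a mean of at least 10 counts, 123 without C102-M1 and 0 without C102-M30, and in BURP-25BaSq 320 and 9 without these tumors. Leaving out a tumor of the line named or, for BURP-16SR, the sexes and the 6 lines, a Ba/Sq line gave 2670 to 4845 genes in BURP-16SR, 225 to 1196 between the sexes, 208 to 357 in BURP-12BaSq, 54 to 177 in BURP-17BaSq, 703 to 2355 in BURP-18BaSq, 0 to 1 in BURP-21BaSq, 77 to 128 in BURP-24BaSq, 9 to 320 in BURP-25BaSq and 6146 to 11737 among the 6 Ba/Sq lines. In the last test, leaving out BURP-18BaSq ended the call of Notch1 (adjusted p = 0.22) and Jag2 (0.188), BURP-24BaSq that of Jag2 (0.0581) and BURP-12BaSq that of Notch3 (0.0804), whereas Hes1 passed without C102-M1 (0.0302). No call of a member in BURP-19NE or BURP-16SR changed without C102-M1 or C102-M30. No paired analysis was possible because the labels give no replicate number: codes such as M3 and M30 recur in some lines, but nothing says that they mark anything shared. Names such as P2, P4 and P5 resemble the paper's names for passages, and it reports sequencing tumors of passages p2 to p5. Passage is not given for every tumor, was not in the fits, and its part in the differences was not tested. Depth limits Hes2 and, in BURP-19NE, Dll1 and Dtx1, and C102-M30 for all low genes.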

Other observations

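Genes within 100 kb of Hes2 and Dll1 were looked at in the tumors where these were high, a choice made after seeing the data. Of 5 genes near Hes2 with at least 10 counts in some tumor, none was above all other Ba/Sq tumors in both C102-M3 and C102-M30. Espn, the nearest, was at 24.6 and 28.9 CPM there and at 3.37 to 32.0 CPM (median 7.06) in the other Ba/Sq tumors, and Acot7 was at 43.9 and 63.4 CPM against 5.44 to 59.5 CPM (median 16). Near Dll1, 1 of 3 genes was above all other Ba/Sq tumors in C148-M3, the overlapping noncoding gene A930024N18Rik (2.20 CPM against at most 1.93 CPM), while Fam120b (28.3 CPM) and Psmb1 (41.5 CPM) were within the range of the others. The summed level of 6 host skin and muscle markers was 492 CPM in C80-M1 of BURP-19NE and 1.74 and 3.72 CPM in the other tumors of that line, and without C80-M1 each BURP-19NE call of a member other than Notch2 remained.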
